A study of Mus musculus with 6 samples.

Results

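The 10 genes Nfkbia, Nfkbib, Nfkbie, Nfkbiz, Nfkb1, Nfkb2, Rela, Relb, Rel and Tnfaip3 encode the subunits of the transcription factor NF-kB and proteins that hold it in check. They were found by their gene symbol, and all 10 were among the 19225 genes listed. RNA was measured in microglia, the resident macrophages of the brain, enriched with CD11b magnetic beads from brains without cerebellum of 3 Cnr1+/+ and 3 Cnr1-/- mice, 1 library per mouse. The comparison asked how microglia of unstressed animals differ when Cnr1, the gene of the cannabinoid receptor CB1, is constitutively disrupted. All mice were male and stress-naive, with an age of 3 months in the labels and a somewhat younger range in the study's methods. The Cnr1+/+ mice are labelled as C57BL6/J with genotype wt/wt, and the Cnr1-/- mice as strain Cnr1 tm1Zim with genotype d/d. In this allele a neomycin cassette interrupts the coding region in every cell of the body, and the methods describe the groups as littermates. Which animals shared a litter or a preparation day is not given, so p-values measure the spread between these libraries.

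NF-kB proteins work as dimers. In resting cells most dimers are held in the cytoplasm by inhibitors of the IkB family, until the IKK kinase complex marks the inhibitor for destruction and frees the dimer to enter the nucleus. Active NF-kB switches on inflammatory genes in microglia and other macrophages, and also genes of its own inhibitors, so the inhibitors belong to a negative feedback loop.

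NF-kB dimers bind to kB motifs, short sites found in the promoters of several of these genes, and the promoter of Nfkbia is shown because Nfkbia was the only gene of the family called between the genotypes. RefSeq promoter sequences (GRCm38.p6) were matched for 7 of the 10 genes, with 10 start sites. The 250 bases before each start were searched on both strands. The window of Nfkbia, chr12:55492648-55492897 on the minus strand, read 5′ to 3′ along the gene, is given first with its kB motif in capitals, and the match nearest to a start follows for each of the other 4 genes that held one.
Nfkbia: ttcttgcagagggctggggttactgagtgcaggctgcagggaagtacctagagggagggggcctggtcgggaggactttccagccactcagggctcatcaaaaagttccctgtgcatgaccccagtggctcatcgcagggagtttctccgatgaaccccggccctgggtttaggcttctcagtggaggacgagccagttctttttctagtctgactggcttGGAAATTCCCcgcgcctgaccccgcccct
Tnfaip3: tttccatcGGAAATCCCCct
Rel: taagcagcGGGAAATCCCCccccctcc
Nfkbie: agcaaacaGGGGGATTCCggaggggc
Nfkb2: ggccgaaaGGGGCTTTCCc

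The capitals mark chr12:55492667-55492676 for Nfkbia, chr10:19015413-19015422 for Tnfaip3, chr11:23771051-23771061 for Rel, chr17:45555594-45555603 for Nfkbie and chr19:46304726-46304735 for Nfkb2. The run of Nfkbia lay 29 to 20 bases before the start and that of Rel 92 to 82 bases before it. The sites of Tnfaip3 and Nfkb2 lay before a RefSeq start but inside the span of the gene in the annotation of the expression values. Of the 10 windows 7 held a match, against 7.25% of all 32851 RefSeq windows of the same length. The windows of Rela and Nfkbib held none, and Nfkb1, Relb and Nfkbiz were not in the table. A match describes the letters of the window and not a bound site.

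Expression values were read counts scaled to library size (cpm), normalised between libraries by the authors. The value of 1 read gave effective library sizes of 7708793 to 10723822 reads after that normalisation. The listed genes held 50.1% to 59.1% of this total. Markers of microglia summed to 17948 to 20938 cpm in the 6 libraries, and all 14 of them exceeded 10 cpm on average. The library labelled Cnr1-/- replicate 2 stood apart, with 11 neutrophil markers at 4117 cpm in sum, against 270 to 532 cpm in the other libraries, and 7 erythrocyte markers at 2342 cpm, against 136 to 237 cpm. Calls that change when this library is left out are given both ways. Cnr1 itself was at 0 cpm in the 3 libraries labelled Cnr1+/+ and at 1.41, 1.21 and 1.79 cpm in those labelled Cnr1-/-. These values, 0 reads in each of the former and 13 to 15 in the latter, go against the labels. The libraries hold reads of transcript 3′ ends. Where the Cnr1 reads lie relative to the cassette in the coding region was not examined, so the allele itself was not checked. Why the libraries labelled Cnr1+/+ held no Cnr1 reads was not tested. Genotypes are for this reason named as labelled throughout.

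Differences between the labels were tested with limma on log2(cpm + 0.1) for the 6659 genes whose mean over the libraries reached 10 cpm. A gene was called at a nominal p under 0.05, and more strictly at a fold change over 1.5 that also had an adjusted p under 0.1. Of the NF-kB genes, 6 reached the minimum mean (Nfkbia, Nfkbib, Nfkb1, Nfkb2, Rela and Rel) and 4 did not (Nfkbie, Nfkbiz, Relb and Tnfaip3). Nfkbia was called higher in the libraries labelled Cnr1-/-, and 0 were called lower. Over all genes tested 6.02% were called, 5.09% higher and 0.931% lower, and the count of 1 of 6 rests on a single gene. The share of higher genes among the 401 called, 84.5%, was 52.5% when libraries were centred on their medians and 45.3% after quantile normalisation. The strict rule called 0 of the 6, against 0.0901% of all genes. The values of the genotype groups overlapped for all 10 genes, of which 6 were tested. They did not overlap for 11% of all genes tested, a share at which 0 of 6 is not particular to the family. The median log2 fold change was 0.02 over the 6 tested genes, with 3 above 0, and 0.08 over all genes tested, with 68.4% above 0. For the 6 genes these values turned on the scaling and on single libraries, since with centring or quantile normalisation 2 were above 0 and the median was -0.05, and without the third library labelled Cnr1+/+ all 6 were above 0, with a median of 0.10. The median over all genes tested moved too. It was 0.008 with centring, -0.001 with quantile normalisation and 0.13 without that library.

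Nfkbia encodes IkB-alpha, the inhibitor that is degraded and resynthesised most rapidly upon activation and a classical NF-kB target. The gene lies at chr12:55489410-55492647 on the minus strand. Its level was 124, 136 and 196 cpm in the libraries labelled Cnr1+/+ and 246, 260 and 163 cpm in those labelled Cnr1-/-. The first and second replicates labelled Cnr1-/- lay above every library labelled Cnr1+/+, but the third lay below the highest of them. The means were 152 ± 38.3 cpm and 223 ± 52.5 cpm (SD, n = 3 each), a fold change of 1.47 with a 95% interval of 1.16 to 1.85. On the log2 scale the difference was 0.55 (SE 0.162). limma gave it a nominal p = 0.00215 and an adjusted p = 0.494, and a two-sided exact permutation test of the 3 against 3 libraries gave p = 0.2, where 0.1 is the smallest value this design allows. Among the 6659 genes Nfkbia ranked 29th by nominal p and 183rd by the size of its change. In bulk samples such as these a change in the cells that carry a transcript and a change of its RNA per cell cannot be told apart.

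Between 957 and 2788 reads supported each value, which gives a counting error of 2.78% and 2.26% in the groups, whereas the SD between libraries was 25.2% and 23.6% of the mean. The size of the difference, and whether it passed the strict rule, turned on a single library in either group. When replicate 3 labelled Cnr1-/- was left out, the log2 fold change was 0.76 and the limma adjusted p = 0.0334. It was 0.75 when replicate 3 labelled Cnr1+/+ was left out, with a limma adjusted p = 0.0566, so that Nfkbia passed the strict rule in both cases. When the library with the neutrophil and erythrocyte transcripts was left out, Nfkbia was still called at the nominal p, with a log2 fold change of 0.43 and a limma adjusted p = 0.999. It kept this call under each of the 12 other settings, with log2 fold changes of 0.42 to 0.76.

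**Figure D1:**
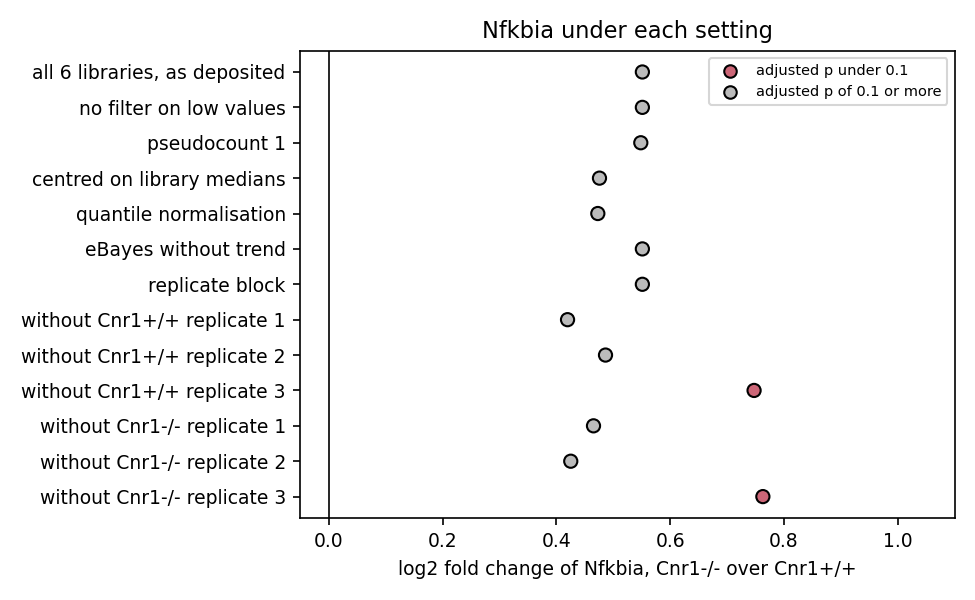
Log2 fold change of Nfkbia, libraries labelled Cnr1-/- over those labelled Cnr1+/+ (horizontal axis), for all 6 libraries as deposited and under each of 12 other settings; red points have a limma adjusted p under 0.1. All points lie between 0.42 and 0.76, and the 2 red ones are the fits without replicate 3 of either group.

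The other inhibitors were not called. Nfkbib encodes IkB-beta, which is degraded more slowly (chr7:28758251-28767512, minus strand). It was at 18.7, 16.6 and 20.5 cpm in the libraries labelled Cnr1+/+ and at 18.7, 17.2 and 21.9 cpm in those labelled Cnr1-/-, with a log2 difference of 0.05 (SE 0.209, 95% interval -0.38 to 0.48, limma adjusted p = 0.986). The ranges of the groups overlapped for the most part, and the sign of this small difference turned when the libraries were centred or quantile normalised. The gene overlaps Ccer2 and Sirt2 on the opposite strand, of which Sirt2 had a mean of 44.3 cpm.

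Nfkbie encodes IkB-epsilon and lies at chr17:45555703-45563169 on the plus strand. Its level ranged from 4.53 to 11.03 cpm, or 38 to 114 reads. The first library labelled Cnr1+/+, at 11.03 cpm, and the second labelled Cnr1-/-, at 10.6 cpm, stood above all others (4.53 to 6.42 cpm), so the spread within either genotype was larger than the difference between them. The means were 7.71 ± 2.90 cpm in the libraries labelled Cnr1+/+ and 6.79 ± 3.35 cpm in those labelled Cnr1-/- (SD, n = 3). The SD between libraries was 37.6% and 49.3% of the mean, above the counting error of 12.3% and 13.7%. Nfkbid, which encodes a nuclear protein of the IkB family, was also highest in these 2 libraries, at 9.99 and 6.34 cpm, with 2.94 to 4.99 cpm in the other libraries.

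Nfkbiz encodes IkB-zeta, an atypical nuclear member that helps NF-kB at a subset of promoters (chr16:55811375-55838899, minus strand). It ranged from 4.31 to 6.62 cpm, with means of 5.02 ± 0.938 cpm and 5.65 ± 0.843 cpm in the libraries labelled Cnr1+/+ and Cnr1-/- (SD, n = 3). Tnfaip3 encodes A20, an enzyme that edits ubiquitin chains upstream of IKK and is, like Nfkbia, a feedback target of NF-kB (chr10:19000910-19015657, minus strand). It ranged from 4.53 to 7.48 cpm, with means of 6.16 ± 1.16 cpm and 5.19 ± 0.856 cpm (SD, n = 3). Both genes were read 36 to 75 times per library, and for both the spread between libraries was close to that of counting. The log2 difference of Tnfaip3 was -0.24, opposite in sign to that of Nfkbia, with a 95% interval of -0.98 to 0.49 that includes 0.

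**Figure D2:**
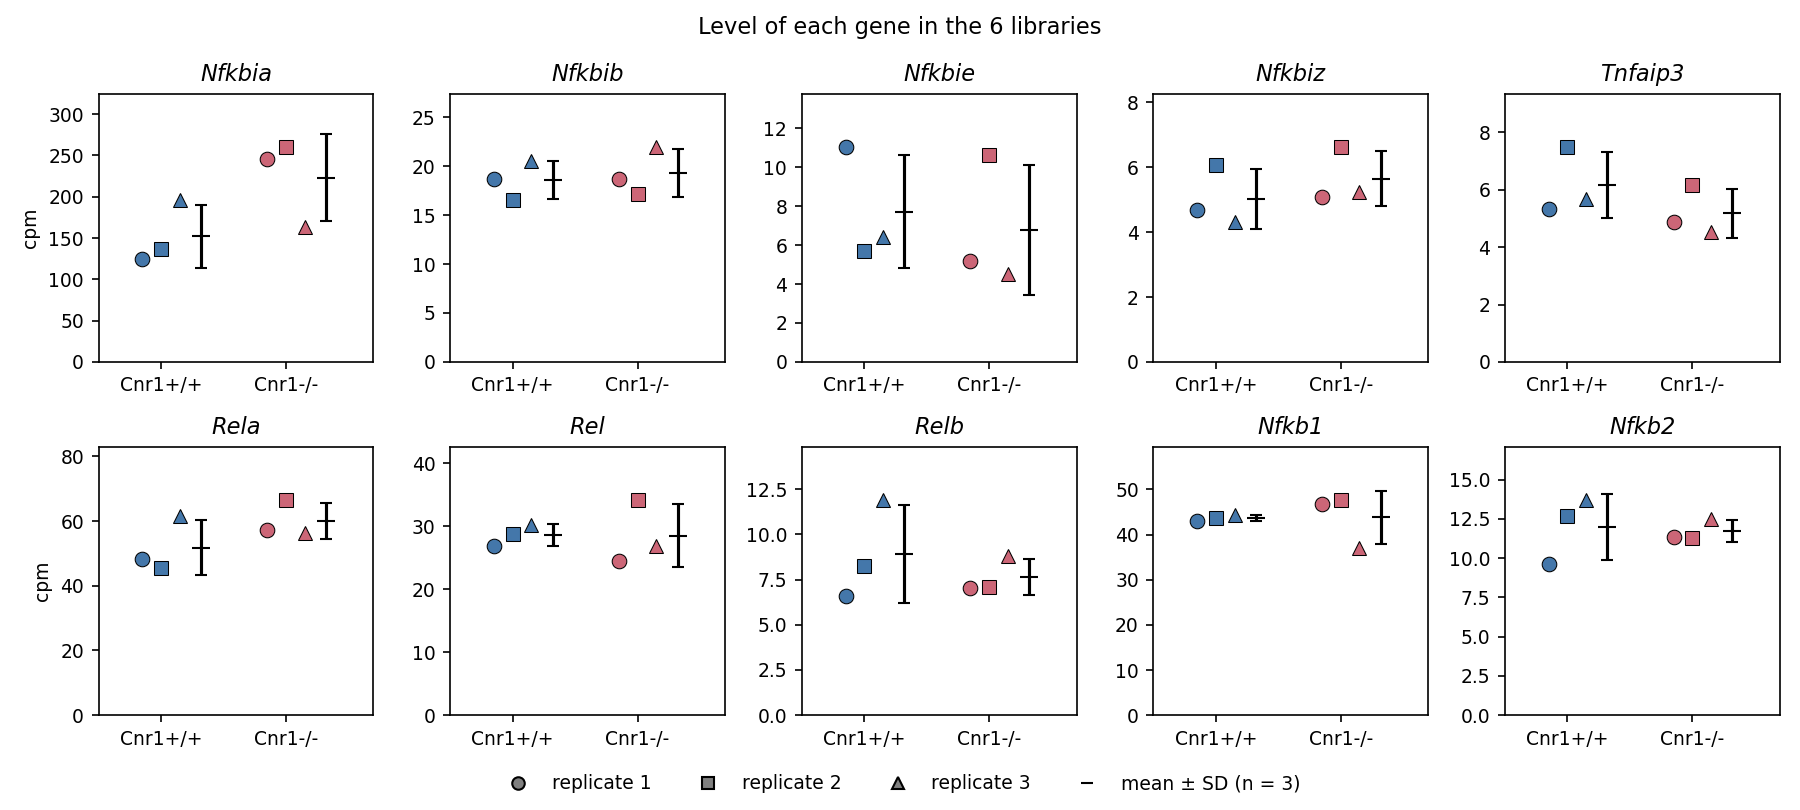
Level of each of the 10 genes in cpm (vertical axes, each starting at 0) in the 3 libraries labelled Cnr1+/+ (blue) and the 3 labelled Cnr1-/- (red); symbols give the replicate and the black bars the mean ± SD. Values of the genotype groups overlap in every panel, and for Nfkbia the third replicate labelled Cnr1-/-, at 163 cpm, lies below the third labelled Cnr1+/+, at 196 cpm.

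Of the subunits that activate transcription, Rela, the partner in the classical dimer, was the nearest to Nfkbia. Rela lies at chr19:5637483-5648130 on the plus strand. It was at 48.3, 45.5 and 61.5 cpm in the libraries labelled Cnr1+/+ and at 57.2, 66.4 and 56.3 cpm in those labelled Cnr1-/-. The third library labelled Cnr1+/+ lay above the first and the third labelled Cnr1-/-, and the log2 difference was 0.22 (SE 0.154, 95% interval -0.10 to 0.54, limma adjusted p = 0.90). Without that Cnr1+/+ library Rela was called, with a log2 fold change of 0.35 and a limma adjusted p = 0.520, so that 1 library decided whether a second NF-kB gene was called.

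Rel encodes c-Rel, a subunit of blood cells and macrophages (chr11:23736847-23770970, minus strand). Its level was 26.9, 28.7 and 30.3 cpm in the libraries labelled Cnr1+/+ and 24.6, 34.1 and 26.8 cpm in those labelled Cnr1-/-. The latter lay on both sides of the former, with a log2 difference of -0.02 (SE 0.182, 95% interval -0.39 to 0.36, limma adjusted p = 0.995). Relb encodes the activating subunit of the slower, non-canonical pathway (chr7:19606217-19629438, minus strand). It ranged from 6.62 to 11.9 cpm, and its means of 8.93 ± 2.69 cpm and 7.65 ± 1.02 cpm (SD, n = 3) differed by less than the spread among the libraries labelled Cnr1+/+.

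Nfkb1 and Nfkb2 encode precursors that act as inhibitors until they are processed to DNA-binding subunits. Nfkb1 (chr3:135584655-135691547, minus strand) was at 42.9, 43.7 and 44.4 cpm in the libraries labelled Cnr1+/+ and at 46.9, 47.6 and 37.1 cpm in those labelled Cnr1-/-. The libraries labelled Cnr1+/+ were closer to each other (SD 1.65% of the mean) than counting alone would give (5.06%), while those labelled Cnr1-/- lay above and below them (SD 13.4%). The log2 difference was -0.0034 (SE 0.158, 95% interval -0.33 to 0.32, limma adjusted p = 0.999). Gm43430, which overlaps Nfkb1 on the same strand, had a mean of 4.29 cpm, and how reads of the shared stretch were divided cannot be read from the table.

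Nfkb2 (chr19:46304320-46312385, plus strand) was at 9.60, 12.7 and 13.7 cpm in the libraries labelled Cnr1+/+ and at 11.4, 11.3 and 12.5 cpm in those labelled Cnr1-/-. All libraries labelled Cnr1-/- fell within the range of the others, with a log2 difference of -0.02 (SE 0.259, 95% interval -0.55 to 0.52, limma adjusted p = 0.995). Nfkb2 overlaps 4833438C02Rik (7.18 cpm) and Psd (5.50 cpm) on the opposite strand.

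Taking the 5 tested genes other than Nfkbia, the limma adjusted p lay between 0.90 and 0.999. Their 95% intervals reached from -0.55 to 0.54 on the log2 scale, with upper bounds from 0.32 for Nfkb1 and 0.36 for Rel to 0.54 for Rela. Each of them overlapped the interval of Nfkbia, 0.22 to 0.88, and differences between the genes were not tested. All 5 intervals include 0. The 4 genes below the minimum mean were fitted without the filter. In this fit 0 of them were called, against 5.17% of all 19225 genes, and their intervals were wider, from -0.98 to 0.93.

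**Figure D3:**
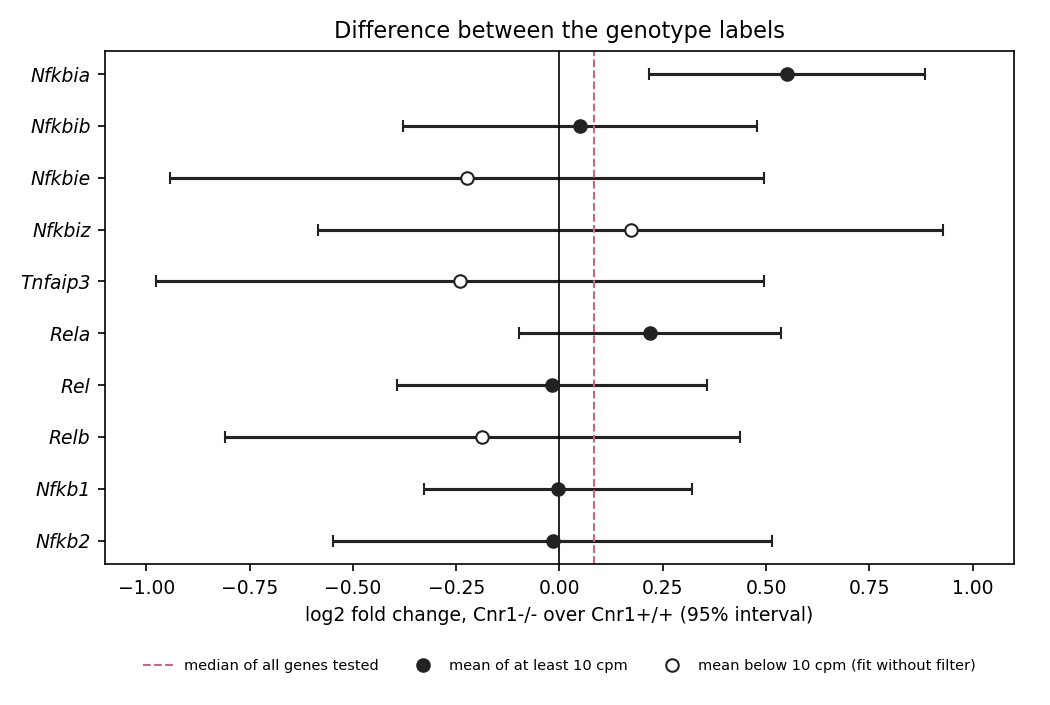
Log2 fold change of each gene, libraries labelled Cnr1-/- over those labelled Cnr1+/+, with its 95% interval from limma; open circles are the 4 genes with a mean below 10 cpm, and the dashed line is the median of all genes tested (0.08). Only the interval of Nfkbia, 0.22 to 0.88, lies above 0.

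Within a library, the level of Nfkbia relative to the subunits it binds does not depend on the scaling between libraries. The ratio of Nfkbia to Rela, as cpm over cpm, was 2.57, 2.99 and 3.18 in the libraries labelled Cnr1+/+ and 4.30, 3.92 and 2.89 in those labelled Cnr1-/-. For Nfkb1 the ratio was 2.89, 3.12 and 4.41 against 5.25, 5.47 and 4.39, and for Rel it was 4.62, 4.74 and 6.46 against 10.01, 7.62 and 6.07. Both ratios to the activating subunits, and that to Nfkb1, were highest in the first and second replicates labelled Cnr1-/-, and the third replicate again fell among the libraries labelled Cnr1+/+. The mean log2 ratio was higher in the libraries labelled Cnr1-/- by 0.33 for Rela, 0.55 for Nfkb1 and 0.57 for Rel, without a test. None of the subunits in these ratios was called.

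The profile of Nfkbia over the 6 libraries was described by the Pearson correlation of log2 values with each of the other 6658 tested genes, which includes the difference between genotypes and is given without a p. The 5 genes most like it were Was (r = 0.992, Spearman rho = 1), Araf (r = 0.990), Gm49839 (r = 0.981), Ube2g1 (r = 0.980) and Srsf2 (r = 0.979). With 6 libraries a high r is common, and 138 genes reached 0.9 or more. Without the libraries farthest from the median of Nfkbia, the second labelled Cnr1-/- and the first labelled Cnr1+/+, r remained between 0.951 and 0.996 for these 5 genes. Within the NF-kB family, Rela had an r of 0.867 with Nfkbia, which was 0.731 without those libraries, and Nfkb1 had 0.570. Rel, Nfkb2 and Nfkbib had 0.293, 0.185 and -0.033, and all 3 changed sign without those libraries, to -0.537, -0.455 and 0.275.

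The other genes of the pathway were grouped by role. In the IKK complex, which phosphorylates the inhibitors, 0 of the 5 tested genes were called, against 6.02% of all genes tested. Their median log2 fold change was 0.17, with 4 of 5 above 0. The median was 0.09 with centring, 0.07 with quantile normalisation and 0.26 without the second library labelled Cnr1+/+. The kinase subunit gene Ikbkb was at 55.7 ± 7.86 cpm in the libraries labelled Cnr1+/+ and 62.3 ± 5.04 cpm in those labelled Cnr1-/-, and Chuk, the other kinase, at 33.3 ± 10.1 and 31.5 ± 8.45 cpm (SD, n = 3). Ikbkg, which encodes the regulatory subunit NEMO and is named after its values were seen, was at 6.49, 8.78 and 12.9 cpm against 11.6, 16.6 and 12.2 cpm. Its groups overlapped, and its log2 difference of 0.55 (SE 0.290, limma adjusted p = 0.838) was as large as that of Nfkbia. Ikbkg was called with eBayes without trend, and also without the third library labelled Cnr1+/+, where the log2 fold change was 0.81 (limma adjusted p = 0.434). The study's own list of genes at a nominal p under 0.05, from these libraries, holds Ikbkg as higher in Cnr1-/- microglia. Among the adaptors and kinases that signal to IKK, 0 of the 10 tested were called, against the same 6.02% (median 0.06, 7 of 10 above 0). With centring the count above 0 was 4 of 10 and the median -0.02, and with quantile normalisation 4 of 10 and -0.03. Without the library labelled Cnr1-/- replicate 2 they were 5 of 10 and -0.02. With another library left out, the kinase gene Irak4 was called higher without the second labelled Cnr1+/+ (log2 fold change 0.48) and without the third labelled Cnr1-/- (0.46). Bcl10, an adaptor, was called higher without the third labelled Cnr1+/+ (0.38). It was the 1 gene of the 10 whose groups did not overlap, near the 11% of all genes tested. Tab2, an adaptor of the kinase TAK1, was at 164 ± 5.04 and 166 ± 19.5 cpm, and the receptor kinase gene Irak1 at 54.9 ± 4.57 and 58.0 ± 12.6 cpm (SD, n = 3). Neither Bcl3 nor Nfkbid, the remaining IkB genes, reached the minimum mean.

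In the group of ubiquitin enzymes and other feedback regulators of NF-kB, 2 of the 13 tested genes were called higher and 0 lower, against 5.09% and 0.931% of all genes, with a median log2 fold change of 0.17. This median was 0.10 with centring, 0.07 with quantile normalisation and 0.09 without the first library labelled Cnr1+/+. All 13 had a log2 fold change above 0, and 12 of 13 lay above the median of all genes, whereas 9 of 13 were above 0 without the library labelled Cnr1-/- replicate 2. Otulin, a deubiquitinase that removes linear ubiquitin chains, was at 8.43, 13.6 and 13.9 cpm in the libraries labelled Cnr1+/+ and at 19.6, 21.0 and 23.1 cpm in those labelled Cnr1-/-. The groups did not overlap, which held for 2 of the 13 genes against 11% of all genes tested, and the log2 fold change was 0.85 (SE 0.238, limma adjusted p = 0.409). Itch, a ubiquitin ligase that works with A20, was at 27.8, 33.4 and 26.0 cpm against 37.5, 36.7 and 37.8 cpm, again without overlap, with a log2 fold change of 0.37 (SE 0.170, limma adjusted p = 0.809). Otulin remained called under all 12 other settings and Itch under 5 of them. Without the library labelled Cnr1-/- replicate 2, Itch was no longer called (0.38 on the log2 scale, limma adjusted p = 0.999), and Otulin alone was called in this group. Sharpin, a subunit of the linear ubiquitin ligase, was called higher without the first library labelled Cnr1+/+ (0.49 on the log2 scale, limma adjusted p = 0.805). Otulin and Itch were as high in the third library labelled Cnr1-/- as in the others of that label, where Nfkbia was not. The study's own list of genes at a nominal p under 0.05, from these libraries, also holds Itch, so its direction is no independent evidence.

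The target genes of NF-kB include cytokines, adhesion molecules and survival factors. Of 30 such genes 28 were listed and 10 tested, of which 0 were called, against 6.02% of all genes tested. The median log2 fold change was 0.03, with 7 of 10 above 0, a count that was 3 of 10 when libraries were centred or quantile normalised. Without the first library labelled Cnr1+/+ this count was 2 of 10, with a median of -0.12. The antiapoptotic gene Bcl2a1b was at 64.7 ± 6.42 cpm in the libraries labelled Cnr1+/+ and 62.9 ± 7.44 cpm in those labelled Cnr1-/- (SD, n = 3). Irf1, a transcription factor of the interferon response, was at 41.6 ± 7.45 and 51.4 ± 7.33 cpm. Irf1 was called higher in 3 of the 6 fits with 1 library left out, those without the first or the third labelled Cnr1+/+ and without the first labelled Cnr1-/- (log2 fold changes of 0.38 to 0.43, limma adjusted p = 0.524 to 0.856). The adhesion molecule gene Vcam1 was called lower without the second labelled Cnr1+/+ (log2 fold change -0.63, limma adjusted p = 0.824).

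Below the minimum mean lay 18 further targets, of which 3 had a nominal p under 0.05 in the fit without the filter, against 5.17% of all genes in that fit, in opposite directions, and these are named after their values were seen. The cytokine Il1b was at 1.43, 2.00 and 2.52 cpm in the libraries labelled Cnr1+/+ and at 4.76, 9.79 and 4.77 cpm in those labelled Cnr1-/- (limma adjusted p = 0.473). The chemokine Cxcl10 was at 1.17, 0.20 and 0.84 cpm against 2.598, 2.05 and 4.29 cpm (limma adjusted p = 0.803). Ccl5, another chemokine, was lower, at 3.24, 2.59 and 0.84 cpm against 0.22, 0.75 and 0 cpm (limma adjusted p = 0.718). None of the 3 overlapped between the groups, and all rest on few reads. Ccl5 lost the nominal p without the first library labelled Cnr1+/+, and Cxcl10 lost it without the second labelled Cnr1+/+ and without the third labelled Cnr1-/-. The highest value of Il1b fell in the library with the neutrophil transcripts, and without that library its log2 fold change of 1.60 was 1.26. The part of neutrophils in this value was not tested.

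**Figure D4:**
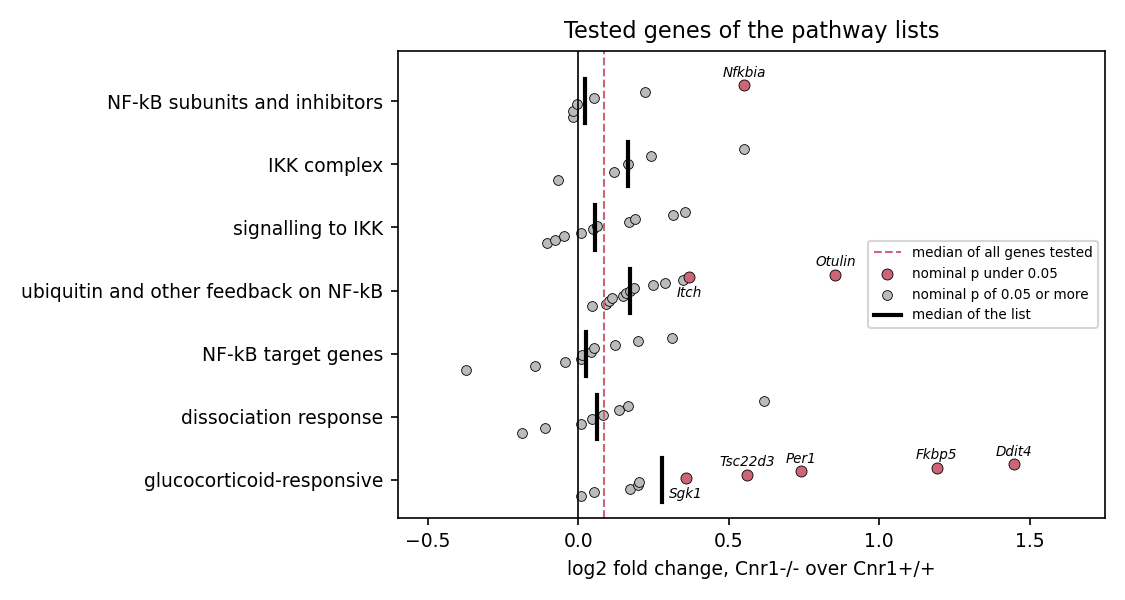
Log2 fold change (horizontal axis) of each tested gene, libraries labelled Cnr1-/- over those labelled Cnr1+/+, by gene group (rows); red points have a nominal p under 0.05, black bars are the medians of the groups and the dashed line is the median of all genes tested. The median of the NF-kB genes is 0.02 and that of the glucocorticoid-responsive genes 0.28.

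Nfkbia is also known as a target of the glucocorticoid receptor, and so it was set beside other genes that respond to glucocorticoids. Of 10 tested, 5 were called higher and 0 lower, against 5.09% and 0.931% of all genes, and the median log2 fold change was 0.28, with all 10 above 0. When libraries were centred or quantile normalised 8 of 10 were above 0, as without the third library labelled Cnr1+/+, and without the third labelled Cnr1-/- 7 of 10 were. The median was 0.45 without the first library labelled Cnr1-/- and 0.42 without the first labelled Cnr1+/+. The called genes were Fkbp5, a co-chaperone of the receptor, Tsc22d3, which encodes the leucine zipper GILZ, Ddit4, an inhibitor of mTOR signalling, the clock gene Per1 and the kinase gene Sgk1. The count was 2, Fkbp5 and Ddit4, without the library that carried the neutrophil transcripts. It was 4 with centring, with quantile normalisation, with eBayes without trend and without the second library labelled Cnr1+/+, in each case because Sgk1 lost its call, which it kept under 6 of the 12 other settings. Without the first library labelled Cnr1-/- Per1 and Sgk1 were not called, while the metallothionein genes Mt1 and Mt2 were. The study named Fkbp5, Tsc22d3 and Nfkbia from these libraries, so their direction is no independent evidence. The whole list was chosen with earlier results of these data known. Its count of called genes and the profile they share are therefore not independent either.

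In 4 of these 5 genes the third library labelled Cnr1-/- stood where it stood for Nfkbia. Ddit4 was at 44.6, 30.9 and 86.7 cpm in the libraries labelled Cnr1+/+ and at 214, 184 and 61.9 cpm in those labelled Cnr1-/-. Per1 was at 9.47, 10.4 and 10.9 cpm against 22.3, 21.9 and 10.4 cpm, and Sgk1 at 99.4, 89.3 and 96.0 cpm against 138, 136 and 95.4 cpm. As for Nfkbia, the first and second replicates labelled Cnr1-/- were high and the third lay below the highest library labelled Cnr1+/+, and the same held for Tsc22d3 at 30.1, 29.9 and 36.8 cpm against 50.6, 62.3 and 34.0 cpm. Fkbp5 differed, at 55.1, 25.4 and 33.2 cpm against 89.6, 70.7 and 88.1 cpm, with no overlap. The correlation with Nfkbia was accordingly 0.949 for Tsc22d3 and 0.463 for Fkbp5 over the 6 libraries.

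**Figure D5:**
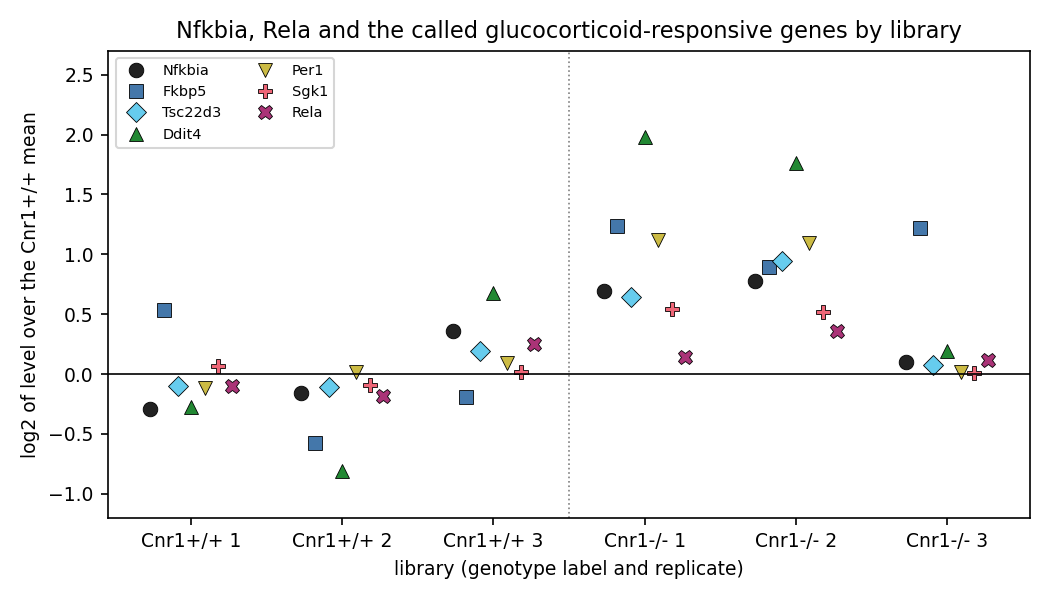
Log2 of the level of Nfkbia, Rela and the 5 called glucocorticoid-responsive genes over their mean in the libraries labelled Cnr1+/+ (vertical axis), in each of the 6 libraries (horizontal axis). In the third library labelled Cnr1-/- Fkbp5 is high, at 88.1 cpm, while Nfkbia, Tsc22d3, Ddit4, Per1 and Sgk1 are near the mean of the libraries labelled Cnr1+/+.

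Transcripts that rise when brain tissue is dissociated were read as well, since Nfkbia is induced by cell stress. Of 19 such immediate early and heat shock genes, 8 were tested and 0 called, against 6.02% of all genes tested, with a median log2 fold change of 0.06. The most abundant, Ier5 and Klf6, were at 106 ± 10.9 and 73.6 ± 4.10 cpm in the libraries labelled Cnr1+/+ and at 92.4 ± 3.33 and 75.9 ± 4.99 cpm in those labelled Cnr1-/- (SD, n = 3). With centring or quantile normalisation 1 of the 8, Ier5, was called lower and the median was -0.01 and -0.03. With 1 library left out, Rgs1 was called higher without the second labelled Cnr1+/+ and without the third labelled Cnr1-/-, and Btg2 lower without the first labelled Cnr1+/+. Below the minimum mean, Atf3, a stress-induced transcription factor named after its values were seen, had a nominal p under 0.05 in the fit without the filter. It was lower, at 6.36, 4.09 and 2.63 cpm in the libraries labelled Cnr1+/+ and 2.49, 0.75 and 1.31 cpm in those labelled Cnr1-/-, without overlap (log2 fold change -1.53, limma adjusted p = 0.831), and did not keep that nominal p without the first or the second library labelled Cnr1+/+ or without the second labelled Cnr1-/-. The summed level of the list was 409, 409 and 470 cpm in the libraries labelled Cnr1+/+ and 431, 437 and 430 cpm in those labelled Cnr1-/-. The part of dissociation in the levels of Nfkbia was not tested. Monocyte markers summed to 31.0 to 36.3 cpm in 5 libraries and 109 cpm in the second labelled Cnr1-/-, and border-associated macrophage markers to 102 to 154 cpm. Neuronal markers summed to 40.6 to 55.4 cpm, those of astrocytes to 248 to 451 cpm, of oligodendrocytes to 420 to 853 cpm and of endothelial cells to 16.5 to 27.1 cpm. Of 8 lymphocyte markers only Cd79a was listed, at 0 to 1.68 cpm. The part of these cells in the levels of the NF-kB genes was not tested.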

How the data were processed

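Per the study's methods and the submitters' processing notes, the authors trimmed the 3′ mRNA reads (QuantSeq FWD), aligned them to mm10 with STAR, quantified them per gene by expectation-maximisation in Partek Flow against Ensembl transcripts and applied TMM normalisation. The deposited values are CPM per gene and library, and no column of values was left unmapped. The listed genes hold 50.1% to 59.1% of the scaled total of a library. Between 83.9% and 86.3% of the values under 50 reads corresponded to a whole number of reads (tolerance 0.02 reads), too few for tests of counts. A value of 0 allows up to 3 reads, or 0.280 to 0.389 cpm, and covers counting error only.

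Groups were taken from the sample titles. limma 3.58.1 in R 4.3.3 (lmFit, eBayes with a mean-variance trend) was run on log2(cpm + 0.1) after the study's own filter, a minimum mean of 10 cpm. Genotype was the single term of the model, and p-values were adjusted over all genes tested (Benjamini-Hochberg). Fold changes are differences of mean log2 values on this scale, and for low genes can lie above or below the ratio of the group means. Exact permutation tests were made with scipy 1.17.1 in Python 3.11.15, and figures with matplotlib 3.10.9. The fit was tested on simulated data. Coordinates are 1-based on mm10. The deposited table gives each end 1 base further, and with that base taken off all 10 genes had the coordinates of GENCODE vM21.

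The NF-kB genes and the gene lists were chosen with earlier results of these data known. Named are all 10 genes, the called genes of each list or else its 2 most abundant, and the 5 genes most correlated with Nfkbia. Genes named outside this rule are marked or follow from it (overlapping genes, Nfkbid, genes called only under an alternative). Alternatives were no filter, a pseudocount of 1, centring on library medians, quantile normalisation, eBayes without trend, a block for the replicate number, and the omission of 1 library at a time.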

Additional observations from a re-analysis of the deposited data

How the results depend on the processing

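Over all genes, 401 were called at a nominal p under 0.05, 84.5% of them higher in the libraries labelled Cnr1-/-. This share was 52.5% when libraries were centred on their medians (197 higher, 178 lower, 259 shared with the 401) and 45.3% after quantile normalisation (163 higher, 197 lower, 225 shared). Without the filter 993 genes were called, and 251 to 600 with 1 library left out. The strict rule called 6 genes, 14 without the filter, 0 with centring, 0 with quantile normalisation, 0 with eBayes without trend (375, 360 and 391 at the nominal p, respectively), and 1 to 24 with 1 library left out. Of the NF-kB genes 1 was called, Nfkbia, and 1 to 2 with 1 library left out.

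The log2 fold change of Nfkbia kept its direction and its nominal call under all 12 alternatives (0.42 to 0.76, limma adjusted p = 0.0334 to 0.999). Nfkbib, at 0.05, reversed to -0.025 with centring and -0.011 with quantile normalisation and lay between -0.046 and 0.13 with 1 library left out. With 1 library left out Nfkb1 lay between -0.067 and 0.11, Nfkb2 between -0.17 and 0.086 and Rel between -0.15 and 0.082. None of these was called. Nfkbie (-0.60 to 0.06) and Relb (-0.38 to 0.04) also crossed 0, while Nfkbiz, Rela and Tnfaip3 kept their sign.

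No source says that equal replicate numbers share a litter or day, and the deviations of equal numbers did not correlate (r = -0.056, -0.032 and -0.031). With the replicate block 421 genes were called (388 shared), 8 by the strict rule, and Nfkbia kept 0.55 with a limma adjusted p = 0.394.

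With 3 mice per genotype an exact permutation test cannot pass 0.05. The 4 genes under 10 cpm rest on 36 to 114 reads per library, where counting error alone is 11.6% to 15.1% of the mean. Library preparation days are not given, and a batch of that kind and the genotype cannot be told apart.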

Other observations

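Of the 17 genes that signal to IKK, 10 were tested, and of the others, all below the minimum mean, 2 had a nominal p under 0.05 in the fit without the filter, against 5.17% of all 19225 genes. They were named after their values were seen. Tab1, an adaptor of the kinase TAK1, was at 5.32, 4.19 and 2.84 cpm in the libraries labelled Cnr1+/+ and at 5.74, 8.21 and 7.75 cpm in those labelled Cnr1-/-. This was a difference of 0.83 on the log2 scale (SE 0.380, limma adjusted p = 0.932). Card9, an adaptor downstream of C-type lectin receptors of myeloid cells, was at 5.84, 1.097 and 3.89 cpm against 7.36, 6.71 and 5.01 cpm, with overlapping groups and a log2 fold change of 1.06 (SE 0.466, limma adjusted p = 0.903). With 1 library left out the log2 fold change of Tab1 lay between 0.59 and 1.03 and that of Card9 between 0.39 and 1.55, and the nominal call was lost in 4 of 6 such fits for Tab1 and 5 of 6 for Card9. Without the library labelled Cnr1-/- replicate 2 neither was called, with log2 fold changes of 0.73 for Tab1 and 1.02 for Card9. Traf3, also below the minimum mean, went the other way, at 8.30, 9.38 and 12.8 cpm against 7.90, 6.53 and 5.49 cpm. Its log2 fold change was -0.60 (SE 0.307, limma adjusted p = 0.954). Traf3 was called lower only without the first library labelled Cnr1+/+ and without the first labelled Cnr1-/- (-0.73 in both).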
